A study of Homo sapiens with 9 samples.

Results

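The MYC, MAX and MXD network is a set of 10 genes for basic helix-loop-helix leucine zipper (bHLHZ) proteins and the large factor MGA that read the same DNA element. The genes were taken by name (MYC, MYCN, MYCL, MAX, MXD1, MXD3, MXD4, MXI1, MNT and MGA) and all 10 were found among the 18970 gene rows of both count tables. MYC, MYCN and MYCL pair with MAX, bind the E-box CACGTG and recruit acetyltransferases and elongation factors to growth genes. The MXD proteins, MXI1, MNT and MGA pair with MAX as well, bind the same element and recruit SIN3 or Polycomb repressors, so that the balance of the partners sets the output. MYC and MYCN mRNAs are known to be short-lived.

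The cells were cranial neural crest cells (CNCCs) at passage 4, derived from the human embryonic stem cell line H9. In every sample, controls included, both SOX9 alleles carried a C-terminal tag of FKBP12-F36V, mNeonGreen and V5, through which the degrader dTAGV-1 removes the protein. The groups were 0h (undepleted, given the DMSO vehicle according to the methods), 3h and 24h of 500 nM dTAGV-1, with labelled SOX9 levels of 100%, 0% and 0%. Each group held 3 cultures, S9CC13_R6, S9CC47_R5 and S9CC47_R6, from 2 clones and 2 differentiation batches, and untagged cells were not analysed here. In each sample 4-thiouridine (4sU, 100 uM) was given for 2 h, and RNA made in that window was recognised in 3′ end reads by T>C conversions (SLAM-seq). T>C reads therefore stand for newly made RNA and total reads for all RNA. Total minus T>C reads (unconverted reads) hold RNA made before the label and new RNA read without a conversion. The parts of these were not measured, so unconverted reads of a gene with short-lived mRNA need not be older RNA.

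Libraries held 16955633 to 28782678 total reads and 3130673 to 5475800 T>C reads, a T>C share of 15.9% to 21.3%, lowest in S9CC13_R6 at 3h. All 11 crest markers were detected, with a summed CPM (reads per 1000000 library reads) of 3816 to 3913 at 0h, 4711 to 4927 at 3h and 5864 to 6160 at 24h, SOX9 itself included. Of 6 stem cell markers, TDGF1 had no read, POU5F1 and NANOG stayed at or below 0.20 CPM, while LIN28A reached 241 to 374 CPM and DPPA4 34.2 to 44.6 CPM. Their sum was 350 to 414 CPM at 0h and 281 to 306 at 24h, and that of 6 chondrocyte markers 31.2 to 41.1 and 21.1 to 24.5, so both were lower at 24h. The chondrocyte sum is mostly 1 gene, COL9A1 (19.6 to 39.4 CPM), and the other 5 had medians of at most 0.41 CPM. The 6 neuron and glia markers, mostly TUBB3 (54.6 to 89.3 CPM), summed to 80.7 to 83.5 at 0h and 57.7 to 77.0 at 24h. The part of these markers in the results was not tested. The SOX9 mRNA, whose protein was removed, rose by 0.77 (3h) and 1.15 (24h) on the log2 scale in T>C reads, in 3 of 3 cultures.

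The sequences were searched for 2 features, whose tie to the T>C reads of these genes was not tested. The first is the E-box that the network's own proteins bind. In RefSeq promoter windows (GRCh38.p14, from 250 bases before to 50 after a start), searched for CACGTG, which reads the same on both strands, 2 of the 9 members with a window held it, against 12.7% of the 9895 tested genes with a window. Both are repressors, MXD4 (chr4:2262320-2262359, minus strand, E-box beginning 238 bases before the start) and MNT (chr17:2401226-2401275, minus strand, beginning 193 bases before it). They are printed 5′ to 3′ with the E-box in capitals.
MXD4: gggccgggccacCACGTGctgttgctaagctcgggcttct
MNT: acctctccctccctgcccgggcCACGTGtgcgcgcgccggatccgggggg

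The second feature is ATTTA, the core of AU-rich elements, which are known to mark short-lived mRNAs. In the 3′ UTR of the canonical hg38 transcript, on its own strand, MXD1 held 10 copies, MYC 6, MXI1 and MGA 4 each, MAX 3, MYCN and MYCL 2 each, and MXD3, MXD4 and MNT none. Of 12027 tested genes with a 3′ UTR, 75.0% held at least 1 copy and the median was 2. Copies per kilobase of UTR were ranked against 10612 genes with a 3′ UTR and a mean of at least 50 total reads at 0h. MYC lay at percentile 71.7, MAX at 58.3, MYCN at 58.0, MXD1 at 56.8, MXI1 at 48.1, MGA at 44.9 and MYCL at 35.9, so none stood at the top for its length. The sites nearest the transcript end of MYCN (chr2:15946924-15946953, plus strand), MYCL (chr1:39895488-39895517, minus strand) and MXD1 (chr2:69942514-69942543, plus strand) are shown with ATTTA in capitals, since these genes stood with MYC at the top of the newly made share described below.
MYCN: caaaatgtatatATTTAgtgctgcatctta
MYCL: ctgaaattttgtATTTAgttgtgattactg
MXD1: cccaatgttaagATTTAtccagatttttac

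The levels of the members at 0h spanned a wide range, with MYCN and not MYC as the main MYC gene of these cells. Levels are CPM of total reads; a 3′ end library gives about 1 fragment per mRNA end, so they were not divided by length. MYCN was at 65.1 ± 14.0 CPM, MGA at 60.0 ± 6.20, MAX, the shared partner, at 49.0 ± 8.84, MXI1 at 37.5 ± 1.84, MNT at 29.8 ± 2.62 and MXD4 at 21.4 ± 5.19 (SD, n = 3 each). MXD3 followed at 8.77 ± 1.25, MYC at 3.23 ± 1.19, MXD1 at 1.56 ± 0.440 and MYCL at 0.912 ± 0.351. In this order MYCN and MGA, MGA and MAX, and MNT and MXD4 overlapped between cultures, and the other neighbours did not. MYCN supplied 93.4% to 94.8% of the total reads of the 3 MYC genes at 0h and MYC 4.12% to 5.28%. MYCL rested on 11 to 30 total reads per library over all times, MXD1 on 23 to 51 and MYC on 43 to 246, so counting error is large for these genes.

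The share of a gene's reads that carried a conversion at 0h was highest for the 3 MYC genes and the repressor MXD1, and lowest for the repressors MXD3 and MXD4. MYC had a T>C share of 71.1% ± 7.34, MYCN of 70.9% ± 6.21, MXD1 of 68.6% ± 8.37 and MYCL of 62.1% ± 11.2 (SD, n = 3 each). MXI1 was at 53.2% ± 2.16, MAX at 47% ± 2.5, MGA at 38.7% ± 3.46, MNT at 37.1% ± 4.06, MXD3 at 23.0% ± 0.956 and MXD4 at 15.7% ± 1.1. Among 10691 genes with a mean of at least 50 total reads at 0h, whose median was 27.0% and whose 5th and 95th percentiles were 8.10% and 59.3%, MYC and MYCN lay at percentile 99.0. MXD1 lay at percentile 98.6, MYCL at 96.3, MXI1 at 90.1, MAX at 83.5, MXD3 at 41.2 and MXD4 at 22.4. MXD1 and MYCL, with means of 34.3 and 20.3 total reads at 0h, fall below the minimum of this set. Their noisier shares are thus ranked, here and below, against genes with more reads. With the reads of the 3 libraries pooled, the 95% Wilson intervals, which cover counting error only, were 65.2% to 77.4% for MYC, 49.7% to 73.4% for MYCL and 57.4% to 75.3% for MXD1.

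**Figure D1:**
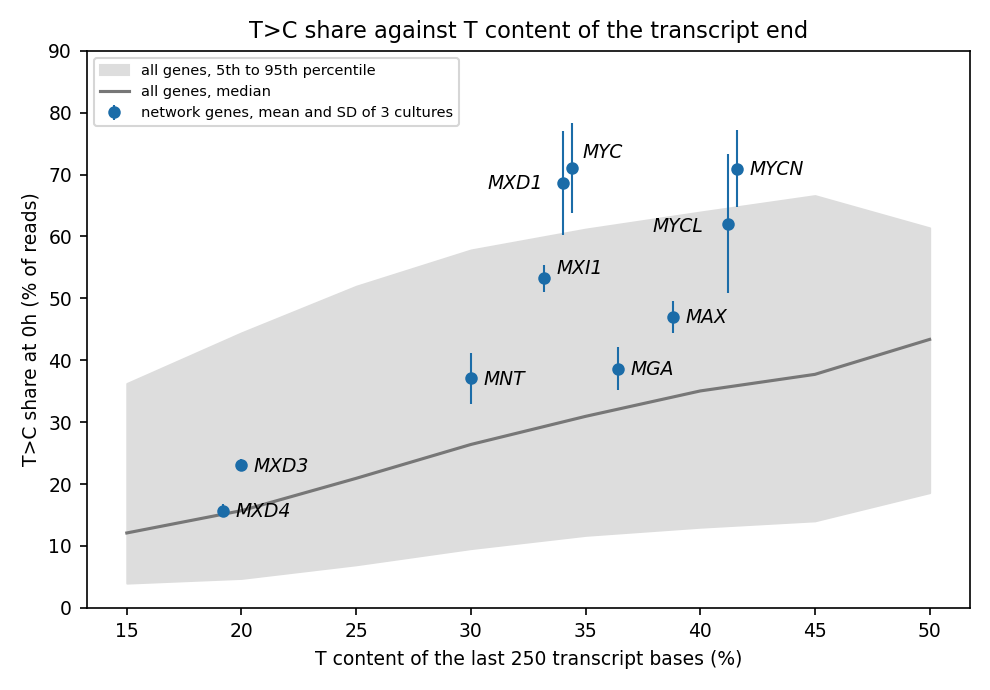
T>C share at 0h (percent of a gene's reads; points, mean of 3 cultures; bars, SD) against the T content of the last 250 transcript bases (percent), with the median (line) and the 5th to 95th percentile (band) of all genes in bins of T content. MYC, MYCN and MXD1 lie above the band, and MXD4, the member lowest in T, lies near the median line.

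Bases that can convert were not spread evenly over the network. T made up 41.6% of the last 250 transcript bases of MYCN, 41.2% of MYCL, 38.8% of MAX, 36.4% of MGA, 34.4% of MYC and 34.0% of MXD1, against a median of 32.0% over tested genes. MXI1 had 33.2% and MNT 30%, and the lowest were MXD3 with 20.0% and MXD4 with 19.2%. MXD3 and MXD4 were thus lowest in both T and share, while MAX and MGA held more T than MYC and MXD1 at a lower share. Across 10612 genes, which are not independent replicates, the share and this T content had a Spearman rho of 0.38. Among genes within 3 percentage points of its own T content, MYC lay at percentile 98.9, MYCN at 98.3 and MXD1 at 98.6. MXD3 then lay at percentile 70.6 and MXD4 at 51.1, so the low rank of these repressors among all genes was not seen at like T content. Unlabelled libraries were not analysed here, and the part of read errors, of T content and of RNA turnover in the shares was not tested.

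With 3 cultures against 3 the exact test of a share cannot go below p = 0.1, so changes of the members' shares with depletion are given as values. Over 20 comparisons of a member at 3h or 24h with 0h, the exact two-sided permutation test gave its smallest possible p of 0.1 in 2, for MAX at 3h and MXD4 at 24h, and the lowest Benjamini-Hochberg adjusted value was 0.714. MAX went from 44.1% to 48.9% at 0h to 33.9% to 42.6% at 3h, lower in 3 of 3 cultures. MYC and MYCN were also lower at 3h in 3 of 3 cultures, by a mean difference of -18.6 and -8.07 percentage points. MXD4 went from 14.6% to 16.8% at 0h to 17.4% to 20.3% at 24h, and it and MNT were higher at 24h in 3 of 3 cultures. The T>C share of whole libraries moved too, with a mean of 19.1% at 0h, 17.9% at 3h (lower in 2 of 3 cultures) and 20.5% at 24h (higher in 3 of 3), and its part in these values was not tested. At 3h the share of MYC was 67.9% and 66.1% in the S9CC47 cultures but 23.3% (10 of 43 reads, Wilson interval 13.2% to 37.7%) in S9CC13_R6, whose 3h library also had the lowest share over all genes.

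After SOX9 removal MYC was the only member that passed the test of the fit across all genes (DESeq2, adjusted p under 0.1), and it rose between 3h and 24h. Listed as S9CC13_R6, S9CC47_R5 and S9CC47_R6, its normalized T>C reads at 0h were 38.6, 75.0 and 36.6. The 3h libraries had 13.2, 31.2 and 43.2, and the 24h libraries 120.4, 73.7 and 136.3. The 3h and 24h groups did not overlap, whereas 24h and 0h did, because S9CC47_R5 was about as high at 0h as at 24h. The 24h level was 2.71-fold the 3h level (log2 fold change 1.44, SE 0.375, adjusted p = 0.0197), higher in 3 of 3 cultures. Against 0h the log2 fold change in T>C reads was 0.81 (SE 0.342, adjusted p = 0.22), higher in 2 of 3 cultures, and at 3h it was -0.63 (SE 0.352, adjusted p = 0.76), lower in 2 of 3. In bulk RNA, fewer cells of a type and less RNA per cell cannot be told apart. SOX9 was labelled 0% at both 3h and 24h, and the labels name no vehicle sample for either time. Effects of SOX9 loss, of its duration, and of time in culture or with the degrader therefore cannot be told apart. When culture was fitted as the replicate block, with neither batch nor a surrogate variable, the T>C change from 0h to 24h passed the test (1.18, adjusted p = 0.048). With the block and 1 surrogate variable no MYC change passed, at 0.51 (adjusted p = 0.769) from 0h to 24h and 0.99 (adjusted p = 0.79) from 3h to 24h in T>C reads, and 0.57 (adjusted p = 0.473) and 0.80 (adjusted p = 0.56) in total reads.

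**Figure D2:**
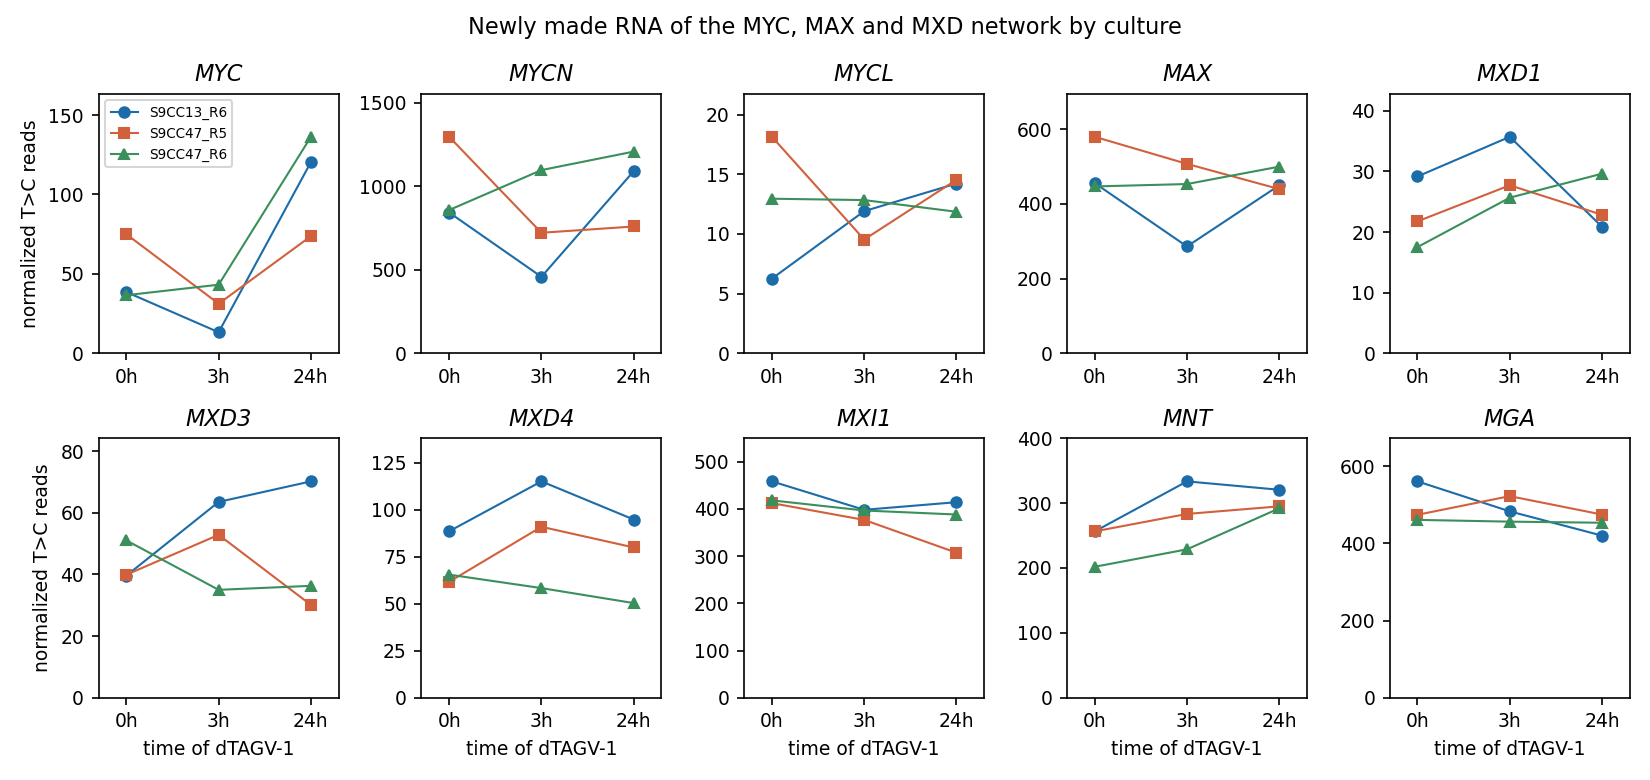
Normalized T>C reads (y axis, from 0) of the 10 members at 0h, 3h and 24h of dTAGV-1 (x axis), 1 line and marker per culture. MYC lies between 13.2 and 43.2 at 3h and between 73.7 and 136.3 at 24h, and the other 9 genes show no shift shared by all cultures that passed the test.

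The total reads of MYC moved alike and added a call for the step from 0h. They include the T>C reads, 74.8% to 79.4% of MYC reads at 24h, so they are not separate evidence. In the culture order used above, normalized total reads at 0h were 56.5, 100.1 and 55.0. The 3h libraries had 47.6, 44.1 and 66.0, and the 24h libraries 154.6, 105.1 and 202.3. The 24h values lay above all others, by a narrow margin in S9CC47_R5. The log2 fold change was 0.91 from 0h to 24h (1.88-fold, SE 0.287, adjusted p = 0.0203) and 1.22 from 3h to 24h (2.32-fold, SE 0.309, adjusted p = 0.00447), each higher in 3 of 3 cultures. Unconverted MYC reads were 18.8, 21.0 and 17.8 at 0h and 32.1, 26.5 and 53.5 at 24h, a log2 fold change of 0.90 that did not pass (adjusted p = 0.271). From 3h to 24h their log2 fold change was 0.63 (DESeq2, adjusted p = 0.655), higher in 2 of 3 cultures, and the groups overlapped.

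The MYC calls depended on which cultures were fitted. Without culture S9CC13_R6 the 24h against 3h change was 0.83 in T>C reads (adjusted p = 1) and 0.41 in total reads (adjusted p = 1), and the total change from 0h to 24h turned to -0.23, although normalized total reads were higher at 24h in both remaining cultures. The same samples with no surrogate variable gave 0.94 (adjusted p = 0.446). Without S9CC47_R5 the T>C change from 3h was larger but not called (1.76, adjusted p = 0.209), while both total changes kept their call (1.40 from 0h, adjusted p = 0.0178, and 1.38 from 3h, adjusted p = 0.066). Without S9CC47_R6 the changes from 3h kept their call (T>C 2.27, adjusted p = 0.0367, and total 1.85, adjusted p = 0.0557), and the total change from 0h was 1.13 (adjusted p = 0.652). Without the single library S9CC13_R6 at 3h the total change from 0h was 0.58 (adjusted p = 0.545). The surrogate variable of the T>C fit was highest (0.71) in that library, where MYC T>C reads were lowest, and lowest (-0.54) in S9CC47_R6 at 24h, where they were highest. With no surrogate variable in the fit the T>C changes of MYC were larger, 1.93 from 3h to 24h (adjusted p = 0.000351) and 1.19 from 0h to 24h (adjusted p = 0.0526).

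Set against MYCN in the same library, where sequencing depth and size factors cancel, the MYC shift from 0h to 24h was upward in each of the 3 cultures, and the size differed. This ratio was formed after the values had been seen. There were 4.55, 5.66 and 4.37 MYC total reads per 100 MYCN reads at 0h, 6.22, 4.48 and 4.06 at 3h, and 10.3, 9.61 and 11.8 at 24h (S9CC13_R6, S9CC47_R5, S9CC47_R6). In T>C reads the ratios were 4.57, 5.78 and 4.26 at 0h, 2.89, 4.32 and 3.94 at 3h, and 11.0, 9.71 and 11.3 at 24h. All 3 ratios at 24h exceeded all 6 at earlier times in both kinds of reads. From 0h to 24h the ratio in total reads rose by 1.18, 0.76 and 1.43 on the log2 scale, beside 1.45, 0.07 and 1.88 for normalized MYC total reads and 0.27, -0.69 and 0.44 for MYCN. In S9CC47_R5 the rise of the ratio thus came with lower MYCN reads and nearly level MYC reads. The mean ratio at 24h was 2.18-fold that at 0h in total reads and 2.19-fold in T>C reads, each with the smallest p that the exact two-sided permutation test of 3 against 3 allows, 0.1. MYCN still made up 88.4% to 89.2% of the total reads of the 3 genes at 24h.

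**Figure D3:**
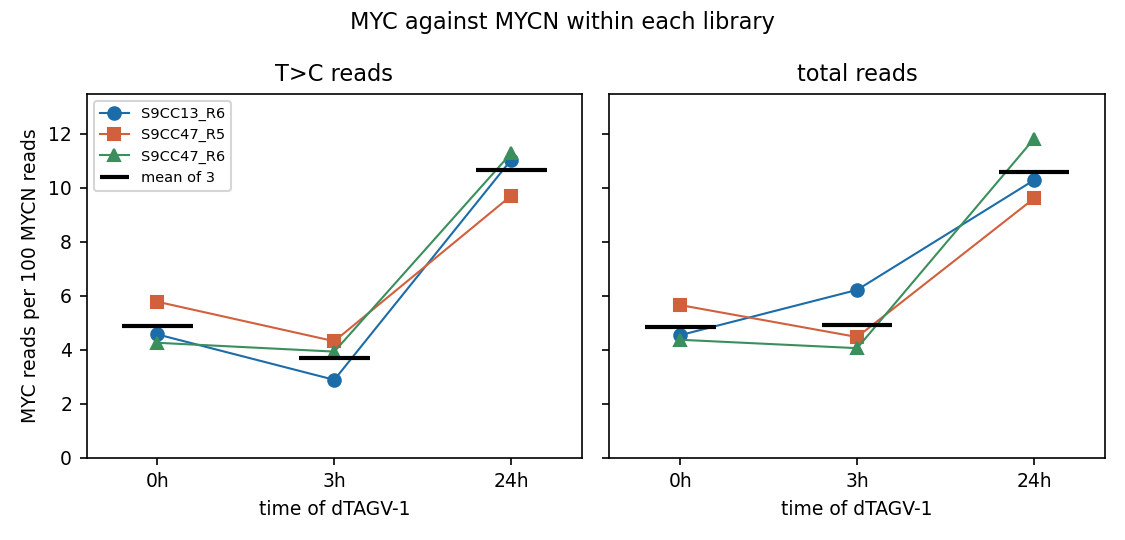
MYC reads per 100 MYCN reads of the same library (y axis, from 0) by time of dTAGV-1 (x axis), for T>C reads (left) and total reads (right), with 1 line per culture and the mean of the 3 cultures as a black bar. All cultures lie between 2.89 and 6.22 at 0h and 3h, and between 9.61 and 11.8 at 24h.

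MYCN itself moved in different directions in the cultures. Normalized T>C reads were 842.9, 1296 and 857.7 at 0h, 457.8, 721.5 and 1097 at 3h and 1090.4, 759.1 and 1208 at 24h. From 0h to 24h they were higher in S9CC13_R6 and S9CC47_R6 and lower in S9CC47_R5, and the groups overlapped. The fit, which adjusts for batch and the surrogate variable, gave log2 fold changes below 0 at both times. In T>C reads they were -0.30 for 3h (SE 0.211, adjusted p = 0.905) and -0.26 for 24h (SE 0.22, adjusted p = 0.706). In total reads they were -0.27 and -0.24 (adjusted p = 0.536 and 0.265). Leaving out S9CC47_R6 gave MYCN a call at 3h in both T>C (log2 fold change -0.88, adjusted p = 0.00933) and total reads (-0.77, adjusted p = 0.000544), and a rise from 3h to 24h in total reads (0.96, adjusted p = 0.000178). Leaving out S9CC13_R6 gave a fall from 0h to 24h in total reads (-0.97, adjusted p = 0.00243). MYCL had 6 to 17 T>C reads per library, and the 95% interval of its T>C change at 24h reached from -1.21 to 1.38.

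MAX, the shared partner of the other members, did not pass in any contrast. Its normalized T>C reads were 455.3, 579.2 and 446.4 at 0h, 285.8, 506.7 and 452.8 at 3h and 449.4, 439.3 and 499.4 at 24h. The value in S9CC13_R6 at 3h stood below the rest, and the groups overlapped. The T>C change was -0.19 at 3h (95% interval -0.45 to 0.08) and -0.23 at 24h (-0.50 to 0.04), and the total change at 24h was -0.11 (-0.33 to 0.11).

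Among the repressors, MNT, which is broadly expressed and opposes MYC through MAX and SIN3, came nearest to the threshold. Its normalized T>C reads were 256.3, 256.4 and 201.9 at 0h, 333.4, 283.2 and 228.7 at 3h, and 320.5, 294.9 and 291.9 at 24h. All 24h values exceeded all 0h values, and 3h lay between, overlapping both. The T>C log2 fold change at 24h was 0.46 (SE 0.165, adjusted p = 0.11) and the total one 0.29 (SE 0.122, adjusted p = 0.117), each higher in 3 of 3 cultures. Under edgeR both passed (0.47, adjusted p = 0.0429, and 0.28, adjusted p = 0.0918). In T>C reads 1 of 10 members had groups without overlap in each contrast. These were MXI1 at 3h, MNT at 24h and MYC between 3h and 24h. The exact test of 3 against 3 cannot go below p = 0.1 even without overlap, and the share over all genes was not computed. An unnamed gene model, ENSG00000262456, overlaps the last exon of MNT on the opposite strand.

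MXI1, a repressor of the MXD group, had lower values at 3h and 24h than at 0h in 3 of 3 cultures without passing the test. Its normalized T>C reads were 458.4, 412.4 and 418.2 at 0h, 398.2, 376.8 and 396.8 at 3h and 414.3, 307.4 and 388.2 at 24h. The 3h group lay below the 0h group without overlap, by a small distance. The T>C change was -0.13 at 3h (adjusted p = 0.984) and -0.22 at 24h (adjusted p = 0.528), and the total change at 24h was -0.22 (SE 0.108, adjusted p = 0.199).

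MXD1, MXD3, MXD4 and MGA were not called, and none differed from 0h in the same direction in T>C and total reads of all cultures. MGA, the scaffold that joins MAX to the Polycomb complex PRC1.6, had T>C changes of -0.05 at 3h (95% interval -0.30 to 0.20) and -0.12 at 24h (-0.38 to 0.14), the narrowest intervals of the network. MXD4 had T>C changes of 0.09 and 0.33 with a 24h interval of -0.20 to 0.87, and MXD3 of 0.08 and 0.22 with an interval of -0.53 to 0.97. MXD1 had 18 to 40 T>C reads per library, was higher at 3h than at 0h in 3 of 3 cultures in T>C reads (0.35, adjusted p = 0.991), and its interval at 24h was -0.74 to 1.11. From 3h to 24h the normalized values of MXD4 and MGA were lower in 3 of 3 cultures in both kinds of reads, and the fit gave T>C changes of 0.24 for MXD4 (adjusted p = 0.941) and -0.07 for MGA (adjusted p = 0.973).

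**Figure D4:**
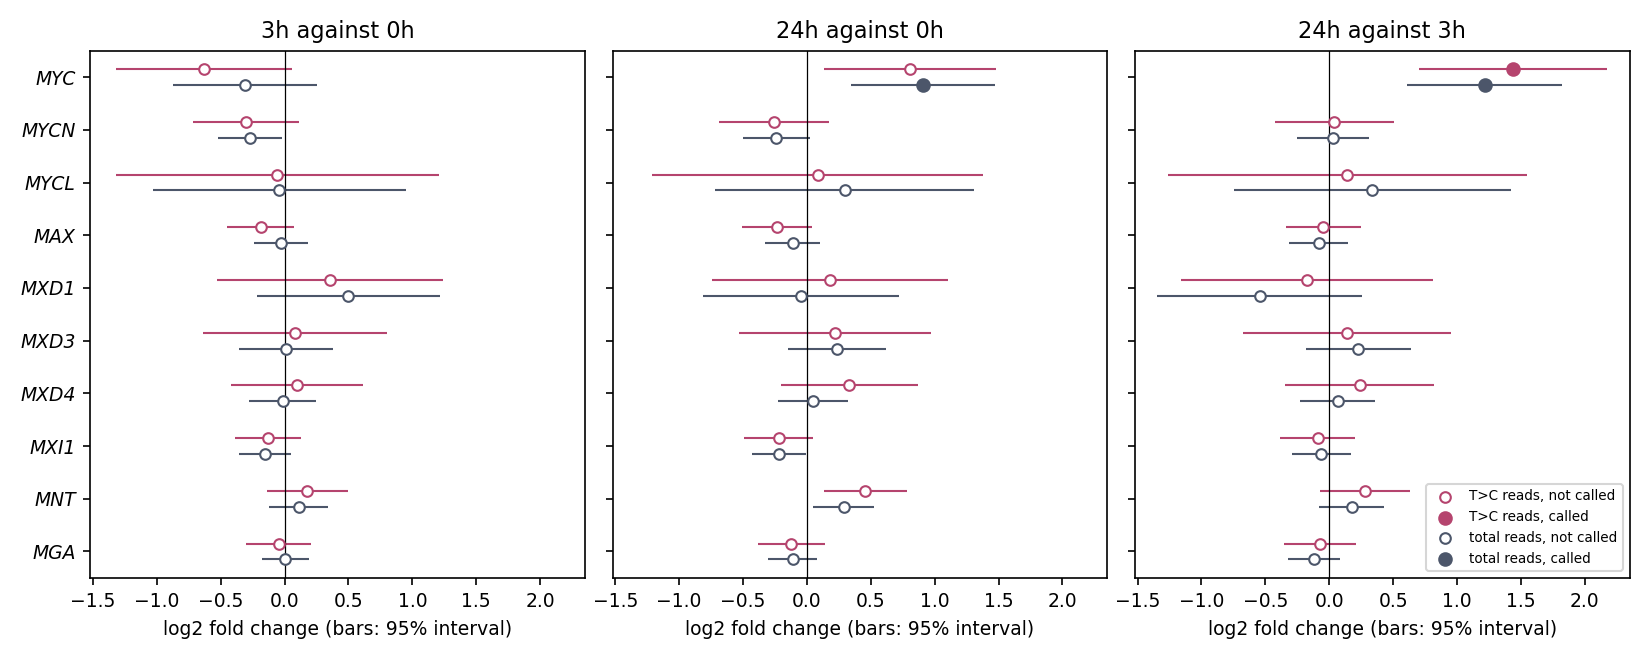
Log2 fold change (x axis; points, DESeq2 estimate; bars, 95% interval) of each member (y axis) in the 3 contrasts, for T>C and total reads; filled points passed adjusted p under 0.1. Only MYC has filled points, at 0.91 for total reads from 0h to 24h and at 1.44 and 1.22 from 3h to 24h.

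Counted over the network, calls were few and near the background. All 10 members passed the filter in T>C and total reads. In T>C reads 0 of 10 were called at 3h, when 1.79% of all tested genes were called, 0 of 10 at 24h against 4.98%, and 1 of 10 between 3h and 24h against 1.14% in either direction and 0.540% higher. In total reads 0 of 10 were called at 3h against 1.89%, 1 of 10 at 24h against 15.0% in either direction and 7.11% higher, and 1 of 10 between 3h and 24h against 5.39% and 2.51%. At an unadjusted p under 0.05 (3h, 24h, and 24h against 3h) the counts were 0, 2 and 1 in T>C reads, when 7.33%, 13.6% and 8.14% of all genes passed. In total reads they were 1, 3 and 1, when 8.22%, 23.8% and 14.5% passed. From 0h to 24h edgeR called 2 members, MYC and MNT, in each kind of reads, when it called 8.04% of all genes in T>C and 17.1% in total reads. In unconverted reads 8 members were tested and none was called, against 1.10% of genes at 3h and 12.1% at 24h. The members' median T>C log2 fold change was -0.05 (3h) and 0.13 (24h), beside -0.01 and 0.00 over all genes.

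The genes for proteins that the network works through are given against the calls over all genes at 24h, 4.98% in T>C reads and, in total reads, 7.11% higher and 7.85% lower. In the SIN3 co-repressor list (10 genes) and among MLX and MLXIP, relatives that share partners with MAX, no gene was called in T>C or total reads. Of 11 co-activators CCNT1, the cyclin of the elongation factor P-TEFb, rose at 24h (T>C 0.30, SE 0.105, adjusted p = 0.0824), and in total reads the TIP60 complex subunits EP400 and BRD8 fell by 0.26 and 0.28 (adjusted p = 0.0116 and 0.0577). Of the 7 PRC1.6 partners of MGA tested, RNF2, its ubiquitin ligase, rose at 24h (T>C 0.47, SE 0.157, adjusted p = 0.0611). Of 10 regulators of MYC protein stability FBXW7, the ubiquitin ligase receptor for MYC, fell by 0.24 in total reads at 24h (adjusted p = 0.0608). Of 8 proteins tested that bind MYC mRNA or AU-rich elements, IGF2BP3, known to protect MYC mRNA, rose at 24h (T>C 0.34, SE 0.1, adjusted p = 0.0259), and ELAVL1 rose in total reads (0.26, adjusted p = 0.0418).

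Of the genes known to be activated by MYC, more were called lower than higher at 24h, as over all genes. Over all genes 312 were called lower and 287 higher of 12037 in T>C reads, and 919 and 832 of 11710 in total reads. MYC was called higher at 24h in total but not in T>C reads. MYCN, with 88.4% to 89.2% of the total reads of the 3 MYC genes, was not called. The tie of the listed genes to either was not tested. Of 60 listed genes, nearly all for ribosome assembly, nucleotide and polyamine synthesis and growth, 3 fell and 1 rose at 24h in T>C reads, where 2.59% of all genes were called lower. The fallers were SRM (spermidine synthase; -0.51, SE 0.111, adjusted p = 0.000289), HSPD1 (a mitochondrial chaperone; -0.33, adjusted p = 0.0175) and PA2G4 (a growth regulator of the nucleolus; -0.27, adjusted p = 0.0474). The riser was CCND2, cyclin D2, at 0.50 (SE 0.076, adjusted p = 1.25e-08), already higher at 3h (0.31, adjusted p = 0.00302). In total reads at 24h, 12 (20.0%) were called lower, against 7.85% of all genes, and 1 (1.67%) higher, against 7.11%, with SRM (-0.38), the ribosome assembly factor RRP12 (-0.39) and hexokinase HK2 (-0.57) at the lowest adjusted p. The median of the list at 24h was -0.09 in T>C and -0.11 in total reads, beside 0.00 over all genes in both, and 44 and 41 of the 60 genes were below 0. Without the S9CC13_R6 library at 3h, 2 were called lower, when 2.56% of all genes were. Without the cultures S9CC13_R6, S9CC47_R5 and S9CC47_R6 in turn, 1, 2 and 0 were called lower. Over all genes 163 of 11708, 788 of 11710 and 328 of 11710 were then called in either direction, against 1751 of 11710 in the reported fit. These counts do not separate falls, so they do not show whether the larger share of falls in the list remained.

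**Figure D5:**
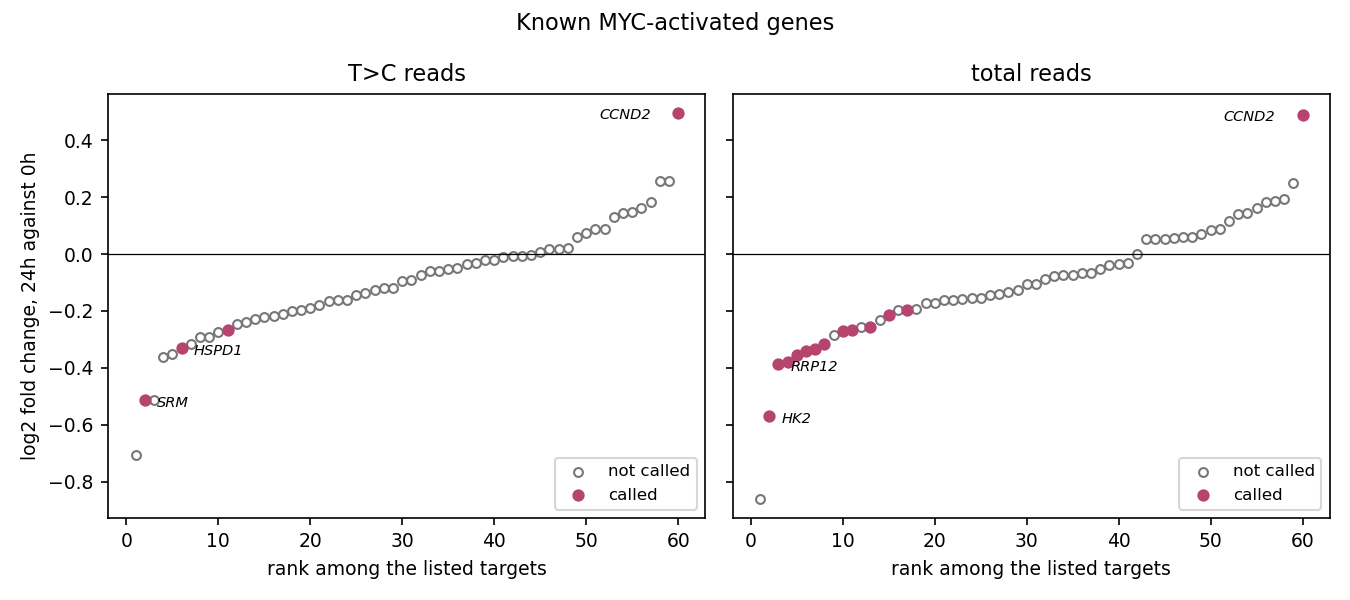
Log2 fold change from 0h to 24h (y axis) of the 60 listed MYC-activated genes, ranked (x axis), for T>C reads (left) and total reads (right); filled points passed adjusted p under 0.1. Of the filled points 3 lie below 0 in T>C reads and 12 in total reads, and CCND2 alone lies above 0, at about 0.50 in both.

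Of the promoters of these targets in the RefSeq table, 29 of 52 (55.8%) held CACGTG, against 12.7% of tested genes. Among 7 tested genes that MYC is known to repress with MIZ1, or that encode MIZ1 itself, CDKN1C, a cyclin-dependent kinase inhibitor, rose in T>C reads at 3h (0.98, SE 0.193, adjusted p = 8.17e-05) and later at 24h (1.70, SE 0.196, adjusted p = 2.53e-15), and again between 3h and 24h (0.72, adjusted p = 0.0471). It was the only 1 of the 7 called in each of these contrasts. Of 12037 genes, 121, 287 and 65 were then called higher in T>C reads. In total reads at 24h CDKN1C (1.52, adjusted p = 5.31e-23) and GADD45A, a growth arrest gene (0.29, adjusted p = 0.0772), rose, 2 of 7 against 7.11% of all genes, and the other 5 were not called.

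The genes whose T>C reads followed MYC most closely over the 9 samples were NDUFA4 (Pearson r = 0.98), a cytochrome oxidase subunit, the ribosomal protein gene RPL4 (0.97) and the deadenylase gene PARN (0.96), out of the 8676 tested genes that averaged 50 or more such reads after normalization. The samples share cultures, depth and labelling, and none of the 3 genes was called between 3h and 24h.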

How the data were processed

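SLAM-seq libraries of 9 samples were analysed. Both deposited tables hold raw counts by gene symbol as the authors made them, of all reads and of reads with a T>C conversion. According to the methods, reads were trimmed with skewer and processed with slamdunk, and the build in the submitters' notes is hg38. The counted 3′ regions and use of strand are not given in the sources used here. Groups came from the sample titles.

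T>C, total and unconverted counts of protein-coding genes (GENCODE 44) with at least 1 CPM in 3 samples were tested with DESeq2 1.42.0 (Wald test, batch and 1 svaseq surrogate variable, sva 3.50.0, all 9 samples, independent filtering off), after the study's own design, and called at a Benjamini-Hochberg adjusted p under 0.1 over all genes. Fold changes are unshrunken, and normalized reads are counts over size factors. The fit without its surrogate variable was run on simulated counts that held no culture effect. The reported fit, with the surrogate variable, was not tested in this way. Gene lists were fixed by name, and the members and lists were chosen with earlier results of these data known. Named list genes were the 3 with the lowest adjusted p per direction and contrast in T>C reads. EP400, BRD8, FBXW7, ELAVL1, RRP12, HK2 and GADD45A, called in total reads alone, were chosen after their values were seen. Alternatives were edgeR 4.0.16, other normalization, covariates, filters and left-out cultures.

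Samples with the same culture name in their titles come from the same culture, and their deviations from the group means correlated over genes with a mean r of 0.131 (0.0169 to 0.286) in T>C and 0.273 (-0.0566 to 0.606) in total reads over 9 pairs. The cultures share clones and batches, and the reported fit has no term for culture. Its p-values therefore measure the spread over libraries that batch and the surrogate variable leave, as if the 9 libraries were independent. Gene loci, UTRs and overlaps came from GENCODE 44 on hg38. MYCL (with MYCL-AS1) and MNT overlap a gene on the opposite strand in their last exon.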

Additional observations from a re-analysis of the deposited data

Results flagged for a closer look

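The MYC change at 24h differed from that at 3h by the test of the difference itself. In T>C reads the log2 difference between 24h and 3h was 1.44 (DESeq2, adjusted p = 0.0197) and in total reads 1.22 (adjusted p = 0.00447), each higher at 24h in 3 of 3 cultures. Total reads include the T>C reads, so these results are not separate evidence. The other 9 members had no such difference that passed. The library S9CC13_R6 at 3h, with 10 T>C reads of MYC and the lowest T>C share of all reads (15.9%), enters this contrast, and without it the T>C difference was 1.43 (adjusted p = 0.0333) and the total difference 1.115 (adjusted p = 0.0438). With culture as the replicate block beside 1 surrogate variable neither passed (0.99, adjusted p = 0.79, and 0.80, adjusted p = 0.56).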

How the results depend on the processing

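The 3 cultures, and at most 246 MYC reads per library, limit these results, and the causes of the changes below were not tested. The number of members called, whichever they were, stayed at the reported 0 or 1 under 75 of 99 alternatives. From 0h to 24h it was 2 under edgeR in both kinds of reads, and in T>C reads 1 with no surrogate variable, with the replicate block (also beside 1 surrogate variable), with only the 6 samples compared and with size factors from total reads. Between 3h and 24h it was 0 with the replicate block and 1 surrogate variable in both kinds of reads, and from 0h to 24h in total reads 0 without the S9CC13_R6 3h library. With each culture left out, with or without a surrogate variable, it ranged from 0 to 2 between 3h and 24h in total reads and from 0 to 1 in the other 5 counts. An unchanged number did not always mean the same gene. In total reads from 0h to 24h, MYCN was called lower in place of MYC without S9CC13_R6 (-0.97). The same held with the block and 1 surrogate variable (-0.52). In T>C reads from 0h to 24h the 1 called was MYCN with that block, and MNT with size factors from total reads.

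The MYC log2 fold change from 0h to 24h in T>C reads passed under edgeR (0.82), with no surrogate variable (1.19), with the replicate block (1.18) and with the 6 samples compared (1.19). With the block and 1 surrogate variable MYC was not called: 0.99 (T>C) and 0.80 (total) between 3h and 24h, and 0.57 from 0h to 24h in total reads, which was 0.58 without the S9CC13_R6 3h library. With a culture left out the values ranged from 0.27 to 1.78 (T>C) and -0.23 to 1.68 (total) from 0h to 24h, from 0.83 to 2.27 (T>C) and 0.41 to 1.85 (total) between 3h and 24h, and from -0.77 to 0.027 in total reads at 3h, where it was 0.021 and 0.027 without S9CC47_R5. The other 9 members kept their lack of a call in 877 of 888 alternatives, with the estimate changing sign in 114. The exceptions were MNT and MYCN, MYCN being called lower from 0h to 24h with the block and 1 surrogate variable (-0.42 in T>C and -0.52 in total reads). The MYC-activated genes called lower in total reads at 24h numbered 0 to 13, while calls over all genes in either direction ranged from 163 to 2006. All 40 alternatives of the T>C shares at 0h moved them by less than 1 SD.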
